A study of Mus musculus with 13 samples.

Results

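The SMAD3 cistrome of dox-induced cells is the set of genomic regions at which ChIP-seq found SMAD3 above input DNA after 3 days of factor induction. Its members are the 12576 merged SMAD3 Dox+ peaks that were called on 3 pooled ChIP replicates, out of 26110 merged peaks in the 3 ChIP groups of the series. The lists called on single Dox+ replicates held 420, 23981 and 10374 peaks for replicates 1, 2 and 3. For comparison, the merged SMAD3 Dox- list held 11512 peaks and the merged OCT4 Dox+ list 2022 regions.

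All cells were mouse embryonic fibroblasts (MEFs) of a mixed 129 and CD1 background with a Nanog-GFP reporter, a dox-inducible tetO cassette of c-Myc, Klf4, Oct4 and Sox2 followed by mOrange (MKOS-ires-mOrange) inserted at Sp3, and a CAG-driven rtTA. Every group, Dox- included, had also been infected with a pMXs retrovirus for Smad3CA, a mouse Smad3 with acidic residues in place of its C-terminal serines, which mimics the phosphorylated form. Per the labels, Dox+ cells received 1 µg/ml doxycycline and Dox- cells received none, while the study's general reprogramming methods give a lower concentration. SMAD3 was immunoprecipitated from both (n = 3 each) and OCT4 from Dox+ cells (n = 3), and 2 inputs per dox condition were pooled as the control. The labels do not say whether replicates came from separate cultures or animals, so p-values describe the spread between these libraries, which may be technical. No expression data were analysed here, so fibroblast identity was not checked against marker RNAs. Retroviral SMAD3 and endogenous SMAD3 cannot be told apart by this ChIP, nor can binding in some cells from weaker binding in all.

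SMAD3 is the signal transducer of the TGF-β and activin receptors. Once its C-terminal serines are phosphorylated it joins SMAD4, enters the nucleus and binds short DNA boxes, usually beside other factors such as AP-1. In fibroblasts it is known for raising matrix genes and for switching on its own inhibitors, among them Smad7 and Skil. In pluripotent cells it is known to be drawn to sites of the resident lineage factors, including OCT4.

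The peak lists give no read totals, so the depth of single libraries is unknown. From the steps of the deposited coverage, the pooled Dox+ SMAD3 libraries covered the genome on average 0.599 times. Replicate 1 stood apart, since its list covered 0.123 Mb against 17.2 Mb in replicate 2 and 7.44 Mb in replicate 3. Lists of the Dox- replicates differed in the same manner, with 1656, 18588 and 4038 peaks. Intervals for shares below are exact (Clopper-Pearson) 95% intervals and cover counting error only.

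Sequence stretches are shown first, as examples chosen from the peaks. The location and motif results further below were counted over whole lists of peaks. Each lies inside a merged Dox+ peak, outside annotated untranslated regions, and is written 5′ to 3′ on the forward strand of GRCm38, the assembly of mm10. Capitals mark matches on either strand to the SMAD half-site CAGAC, the GC-rich SMAD sequence GGCGC, the AP-1 sites TGACTCA and TGAGTCA, the KLF sequences GGGTGTGG and GGGCGTGG, and the octamer ATGCAAAT that OCT4 binds. The first 3 come from peaks at transcript starts that all 3 replicate lists contained.
Foxo1, chr3:52268180-52268335: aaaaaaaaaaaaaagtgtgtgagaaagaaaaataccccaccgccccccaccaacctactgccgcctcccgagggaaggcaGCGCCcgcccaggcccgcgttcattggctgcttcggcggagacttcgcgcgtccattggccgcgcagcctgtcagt
Pdgfb, chr15:80014809-80015008: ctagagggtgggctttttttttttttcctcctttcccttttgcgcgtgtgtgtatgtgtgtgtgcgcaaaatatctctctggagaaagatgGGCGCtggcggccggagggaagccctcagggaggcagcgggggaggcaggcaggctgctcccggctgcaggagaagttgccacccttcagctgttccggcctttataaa
Skil, chr3:31094491-31094690: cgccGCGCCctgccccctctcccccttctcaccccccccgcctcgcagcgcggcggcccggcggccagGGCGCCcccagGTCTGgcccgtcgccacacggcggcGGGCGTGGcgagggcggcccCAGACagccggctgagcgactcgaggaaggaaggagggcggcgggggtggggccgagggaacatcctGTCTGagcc

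The stretches at Foxo1, which encodes a forkhead factor of insulin signaling, and at Pdgfb, a growth factor for fibroblasts, each held 1 GC-rich SMAD match and no half-site. The stretch at Skil, which encodes the SMAD corepressor SnoN, held 3 half-sites, 3 GC-rich matches and 1 KLF match. Next come a peak beyond the 3′ end of Krt8 and an intronic peak near the start of Dsp, both absent from the merged Dox- list.
Krt8, chr15:101995644-101995843: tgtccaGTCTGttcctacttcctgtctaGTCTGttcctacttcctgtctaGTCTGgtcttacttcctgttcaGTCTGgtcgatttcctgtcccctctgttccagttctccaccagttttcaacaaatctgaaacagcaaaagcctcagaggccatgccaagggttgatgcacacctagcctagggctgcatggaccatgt
Dsp, chr13:38152780-38152979: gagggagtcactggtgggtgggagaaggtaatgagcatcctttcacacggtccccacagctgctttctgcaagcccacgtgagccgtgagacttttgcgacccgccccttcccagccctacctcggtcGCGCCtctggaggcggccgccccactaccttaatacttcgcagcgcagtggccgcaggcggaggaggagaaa

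The Krt8 stretch held 4 half-sites in a short repeated unit, and the Dsp stretch 1 GC-rich match. The following 2 stretches come from peaks among the highest in fold that carried an AP-1 site away from transcript starts and were in 2 or more lists, and the last 2 from octamer-bearing peaks chosen likewise that a merged OCT4 region overlapped.
near Gm45202, chr7:80166816-80167015: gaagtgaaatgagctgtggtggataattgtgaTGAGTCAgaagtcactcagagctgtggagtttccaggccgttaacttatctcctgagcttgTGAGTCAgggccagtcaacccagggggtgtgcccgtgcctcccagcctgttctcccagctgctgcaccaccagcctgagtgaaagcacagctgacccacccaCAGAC
near Irf2bpl, chr12:86879130-86879329: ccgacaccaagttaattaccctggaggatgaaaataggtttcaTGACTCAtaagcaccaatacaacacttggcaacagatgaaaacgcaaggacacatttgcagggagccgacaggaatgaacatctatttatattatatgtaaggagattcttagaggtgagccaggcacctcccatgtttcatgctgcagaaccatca
near Gsx2, chr5:75085119-75085318: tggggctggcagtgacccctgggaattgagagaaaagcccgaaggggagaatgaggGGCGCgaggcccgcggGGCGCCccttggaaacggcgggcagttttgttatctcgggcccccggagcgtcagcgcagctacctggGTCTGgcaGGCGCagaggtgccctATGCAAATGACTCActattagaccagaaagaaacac
near Scd1, chr19:44385755-44385954: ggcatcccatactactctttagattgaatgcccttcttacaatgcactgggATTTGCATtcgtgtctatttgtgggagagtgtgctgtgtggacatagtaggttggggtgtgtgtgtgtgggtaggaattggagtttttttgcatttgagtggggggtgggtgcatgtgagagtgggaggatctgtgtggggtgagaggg

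The stretch near Gm45202 held 2 AP-1 matches and 1 half-site, and the peak around it had a merged fold over input of 9.80, against 2.36 and 2.25 in replicates 2 and 3. In the stretch near Gsx2 the octamer and an AP-1 site overlapped, with 4 GC-rich matches and 1 half-site beside them. All 4 of these peaks were present in 2 replicate lists and in none of them was a merged Dox- peak found.

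Most merged SMAD3 peaks lay at transcript starts. Of the 12576 merged peaks, 9039 (71.9%, interval 71.1 to 72.7) had their centre within 1000 bp of an annotated transcript start and are called promoter peaks here. The share was 84.8%, 47.8% and 72.3% in the lists of replicates 1, 2 and 3, so the longest list had most of its peaks elsewhere. A further 1760 (14.0%) were centred between genes, 1452 (11.5%) in introns, 176 (1.40%) in untranslated regions, 84 (0.668%) in non-coding exons and 65 (0.517%) in coding exons. Among protein-coding genes, 6899 of 21938 starts (31.4%) lay inside a merged peak. The share of gene starts under a peak was highest 50 bp into the gene, at 32.4%, and was 6.16% at 500 bp upstream against 9.60% at 500 bp downstream. A peak that held a start reached a median of 250 bp upstream and 260 bp downstream of it, and 57.0% of them reached farther into the gene than away from it.

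**Figure D1:**
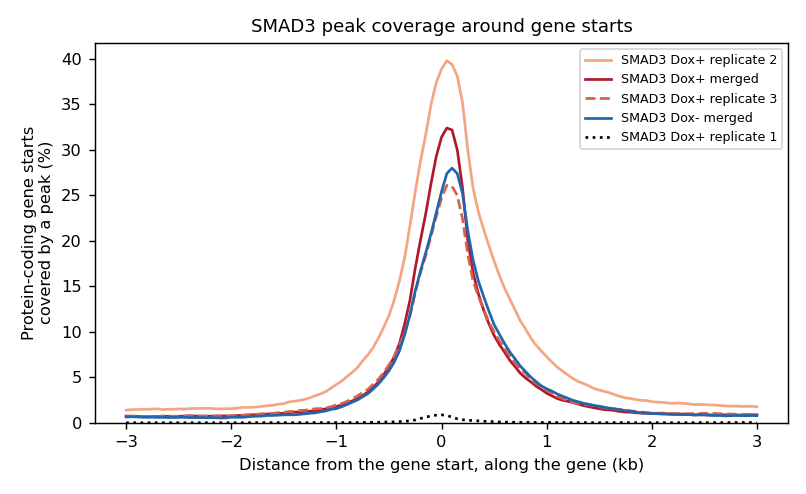
Share of the 21938 protein-coding gene starts covered by a SMAD3 peak (y axis, %) at each distance from the start along the gene (x axis, kb), for the merged and single Dox+ lists and the merged Dox- list. The merged Dox+ curve peaks at 32.4%, replicate 2 at 39.8%, replicate 3 at 26.1% and replicate 1 at 0.875%.

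The density of peaks varied between chromosomes. It was highest on chromosome 11, with 9.12 peaks per Mb, and lowest on chromosome X, with 1.25, among chromosomes with any peak, and chromosome Y had 0 merged peaks. Relative to gene number, autosomes held between 45.1 (chromosome 7) and 71.4 (chromosome 12) peaks per 100 protein-coding genes, and chromosome X held 22.5. On chromosome X 83.1% of peaks were promoter peaks. Neighbouring merged peaks were a median of 54.5 kb apart, and 256 of 12556 gaps were shorter than 1 kb.

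Promoter peaks and the other peaks differed in composition. Median GC content was 64.8% in promoter peaks and 50.0% elsewhere. Half-sites were found in the central 200 bp of 32.6% of promoter peaks and of 40.6% of the others, against 37.2% of windows of that length at all protein-coding gene starts and 38.6% of windows 1000 bp beyond the edges of the non-promoter peaks. The GC-rich SMAD sequence was present in 64.2% of promoter peaks, in 41.8% of gene starts and in 7.73% of the flanks of promoter peaks. It was present in 14.5% of the other peaks and 7.69% of their flanks. The AP-1 site, bound by FOS and JUN proteins, was the reverse, with 1.92% of promoter peaks, 2.79% of gene starts, 10.3% of the other peaks and 3.51% of their flanks. The KLF sequence was present in 7.73% of promoter peaks, 2.71% of their flanks, 7.18% of gene starts, 7.35% of the other peaks and 2.87% of their flanks. The palindrome GTCTAGAC was found in 31 of all 12576 centres and the E-box CACGTG, bound by MYC, in 5.62%. A match is a description of the sequence, and windows of higher GC content hold more GC-rich matches.

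Replicate support was graded by how many replicate lists overlapped a merged peak by at least 1 bp. The merged peaks were called on the pooled reads of the same replicates, so merged and replicate lists are not independent. The number in 2 or more lists was 8665 (68.9%, interval 68.1 to 69.7). Of these, 364 were in all 3 lists, 8269 in the lists of replicates 2 and 3 alone, and 32 in those of replicates 1 and 2 alone. A single list supported 3831 peaks, which for 3691 of them was that of replicate 2, and 80 peaks were in no list. The count thus rested on replicates 2 and 3. Peaks in both remaining lists numbered 8633 without replicate 1, 364 without replicate 2 and 396 without replicate 3. When replicate peaks were restricted to a −log10 q-value of at least 2, only 903 merged peaks had 2 or more lists.

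Peaks in more lists were wider and more often at transcript starts, while their median fold was much the same. Median width was 250 bp for peaks in no list, 301 bp for 1 list, 578 bp for 2 and 810 bp for 3. The promoter share was 36.2%, 51.5%, 80.7% and 91.8%, and median GC content 52.6%, 56.0%, 63.1% and 64.9% in the same order. Median fold over input, by contrast, was 2.35, 2.28, 2.30 and 2.35. A merged Dox- peak overlapped 12.5%, 32.9%, 73.0% and 91.2% of them. Wider peaks have more bases with which to meet another list, so width and support are not independent. Seen from the single lists, 399 of 420 replicate 1 peaks, 87.9% of replicate 3 peaks and 37.8% of replicate 2 peaks met a peak of another Dox+ replicate.

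**Figure D2:**
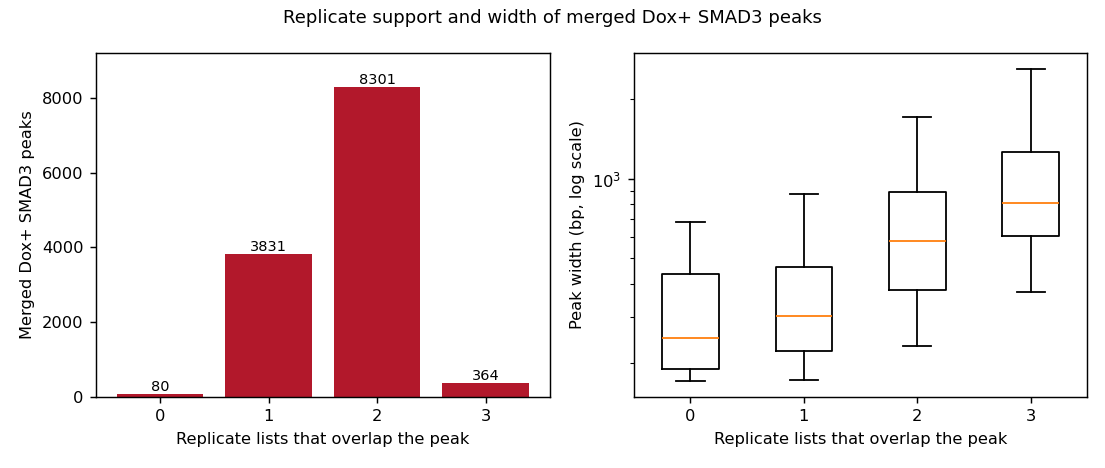
Left, number of merged Dox+ SMAD3 peaks (y axis) by the number of replicate lists that overlap them (x axis). Right, width of those peaks (y axis, bp, log scale), where boxes span the quartiles with the median and whiskers the 5th to 95th percentiles, and the median rises from 250 bp in no list to 810 bp in all 3.

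Merged peaks had a median width of 486 bp, with a range between the 5th and 95th percentiles of 189 to 1541 bp. In all, 1872 peaks (14.9%) were wider than 1000 bp and held 37.1% of the covered bases, and 294 were wider than 2000 bp. Broad peaks are drawn around narrower blocks of stronger signal. Of the merged peaks, 8496 (67.6%) contained 1 such block, 1427 (11.3%) 2 or more, and 2653 (21.1%) none, and in those with a block the blocks summed to a median of 344 bp. The promoter share was 80.3% for peaks of 500 to 1000 bp and 61.6% for peaks over 2000 bp. Of the 88 peaks over 3000 bp, all were in 2 or more lists, 68 held a transcript start, and all but 8 overlapped a merged Dox- peak.

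The widest peak by far lay over Neat1, the long noncoding RNA that scaffolds paraspeckles. It spanned chr19:5821615-5844766, 23152 bp with 15 narrow blocks, and was present in all 3 lists with a fold of 2.79. The next widest among peaks in 2 or more lists lay partly over Tnrc18 (7246 bp) and near, but not over, the start of the microRNA gene Mir21a (6319 bp). They were followed by peaks over Junb (5912 bp) and within Ppp1r10, a subunit of a nuclear phosphatase complex (5538 bp). Of these 5 peaks, those over Neat1 and Junb were in all 3 lists, and only the Junb peak was centred near a transcript start. Each of the 5 overlapped a merged Dox- peak, and their folds lay between 2.25 and 2.79. Peaks over 5000 bp were also found over Trim8, which encodes a ubiquitin ligase (5436 bp), Malat1, another abundant nuclear RNA (5304 bp), and Tgif1, a corepressor of SMAD2 and SMAD3 (5080 bp).

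The peaks with the highest fold among those in all 3 lists that are described here were promoter peaks, and all but the one at Anxa7 were under 1000 bp wide. They lay at Foxo1 (fold 7.65, 585 bp), Ppp6r1, a phosphatase subunit (6.94, 903 bp), Pdgfb (5.51, 866 bp), the annexin gene Anxa7 (5.14, 2468 bp) and the LIM-domain adaptor gene Ldb1 (4.72, 348 bp). At Foxo1 the replicate lists gave folds of 4.08, 10.2 and 2.28. At Pdgfb they gave 1.80, 2.41 and 3.73, each lower than the merged value. The same held at Ppp6r1 (2.08, 4.76 and 2.68), Anxa7 (4.07, 4.64 and 4.89) and Ldb1 (2.28, 2.46 and 2.55), but not at Foxo1. Among these 5 peaks the one at Pdgfb had no overlapping peak in the merged Dox- list, while the others had one with a fold between 2.36 and 4.11.

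Genes were then ranked by the bases that merged peaks covered in the gene and 2000 bp on each side. In total 12651 of 38671 genes (32.7%) had a peak, and 10266 of 21938 protein-coding genes (46.8%) did. Among other classes the share was 71.6% of 190 bidirectional-promoter noncoding genes, 10.8% of long intergenic RNA genes and 9.76% of microRNA genes. A protein-coding gene with a peak had a median of 621 bp covered, 76.0% of them had a single peak, and 31 genes had 5000 bp or more. The highest total, 37379 bp, was that of Gm20388, a readthrough model of 4439 kb whose 64 peaks covered 0.842% of it, and Fgfr2, annotated over 2965 kb, had 17062 bp at 0.575%. Such totals follow the annotated length, and overlapping models such as Gm28308 and Hoxa3 share their bases.

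Compact genes with high totals were led by nuclear noncoding RNAs. For Neat1, 23184 bp (93.6% of the span with flanks) were covered in the merged list, and 271, 23269 and 20281 bp in replicates 1, 2 and 3. For Malat1, 9223 bp (84.0%) were covered, and 157, 9852 and 9216 bp in the replicates. In both cases replicates 2 and 3 were close to each other and replicate 1 held a small fraction. The Dox- replicates covered 3346, 21516 and 14615 bp at Neat1 and 3289, 9147 and 5944 bp at Malat1, overlapping the Dox+ range.

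Klf3, a transcriptional repressor of the KLF family, ranked next among genes of moderate length. Its 5 merged peaks covered 8179 bp (24.4%), and the replicates 789, 15534 and 6686 bp. The Dox- replicates covered 678, 3902 and 821 bp, so replicates 2 and 3 with dox lay above all Dox- values and replicate 1 within them. At Lmna, the gene of the nuclear lamins A and C, the Dox+ replicates covered 0, 9792 and 2524 bp and the Dox- replicates 0, 4429 and 291 bp. At Zbtb7a, a zinc-finger repressor, they covered 0, 7268 and 5743 bp with dox and 0, 3704 and 0 bp without. The groups overlapped in each of these genes, at Klf3 and Zbtb7a through Dox+ replicate 1 and at Lmna through replicates 1 and 3. Other compact genes near the top were H2-DMa (7716 bp), Trim8 (7027 bp), Hoxa3 (6629 bp), Ppp1r10 (6396 bp), the retinoic acid receptor gene Rara (6026 bp) and Ubtf, an RNA polymerase I factor (5954 bp). In that order the merged Dox- list covered 10097, 4325, 1367, 7130, 6282 and 5021 bp of them. The ranking used Dox+ bases, which favours genes with more cover with dox. The whole replicate 3 list also covered 7.44 Mb with dox against 2.14 Mb without.

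**Figure D3:**
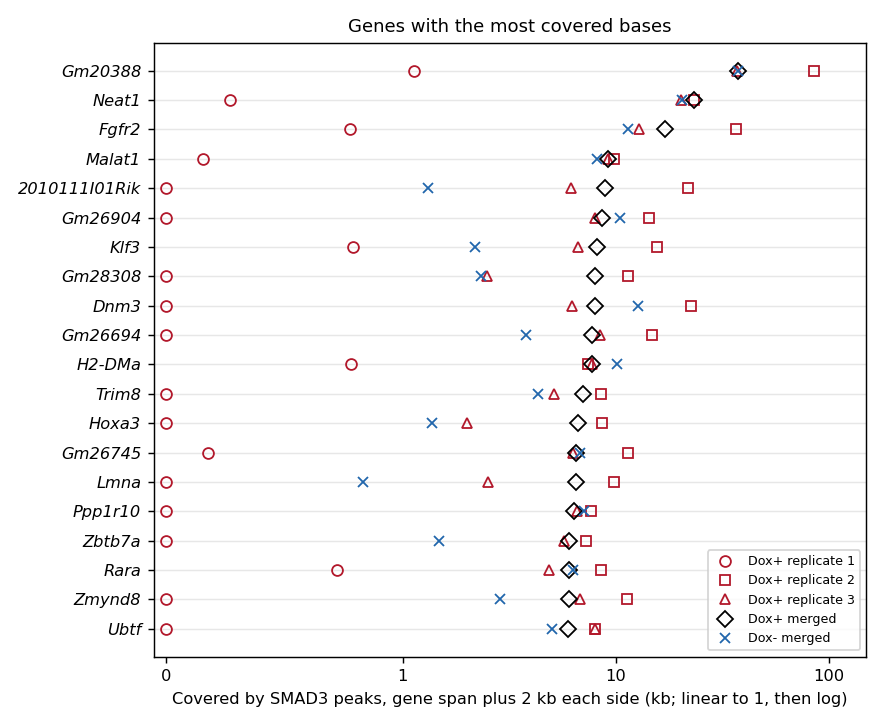
Bases covered by SMAD3 peaks in the 20 genes with the most covered bases (x axis, kb, linear up to 1 and logarithmic above), in the 3 Dox+ replicate lists, the merged Dox+ list and the merged Dox- list. Replicate 1 has at most 1129 bp in any of them, and Gm20388 and Neat1 have the most in the merged list.

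As a share of the span, among genes with a peak in all 3 lists, the order was led by Neat1 (93.6%). It was followed by the antisense gene CR974462.3 (93.1%), which lies inside H2-DMa and shares its covered bases with that gene. Then came Malat1 (84.0%), Ftl1, the ferritin light chain (79.9%), and a group of small nucleolar RNA genes on chromosome 2 led by Snord12 (77.0%). After these came the microRNA model Gm22133 inside Ftl1 (74.2%), Junb (71.8%) and Id3 (70.9%). These spans are short, from 4.09 kb for Snord12 to 24.8 kb for Neat1, and the flanks make up much of the smallest ones.

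Lists of genes by role were counted next. A merged peak in the gene or its flanks was found for 46.8% of protein-coding genes, a peak in 2 or more Dox+ lists for 40.5% and a peak in all 3 for 1.95%, while 42.0% had a merged Dox- peak. Every count below should be read against these shares, and longer genes have more bases in which a peak can fall. The lists were chosen with earlier results of these data known.

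Receptors and ligands of the TGF-β and activin family carried peaks in 15 of 18 members, but in 2 or more replicate lists in 9. The largest covered lengths were those of Ltbp1, which stores latent TGF-β in the matrix (2145 bp), the ligand gene Tgfb2 (1354 bp) and the receptor gene Tgfbr2 (1317 bp). At Ltbp1 all 3 replicates had bases covered. At Tgfb2 the replicates had 0, 3173 and 1419 bp, so replicate 1 had none. No merged peak was found at Inhba, Nodal or Eng. Among SMAD genes 5 of 6 had a peak, each with 828 to 1369 bp and each 1 peak in number. Smad4, the common partner, was covered in all 3 replicates (481, 1407 and 887 bp), and Smad9 had no merged peak. In the Dox- list 17 of the 18 and 5 of the 6 genes had a peak.

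Inhibitors of the pathway had a peak in 12 of 16 genes, all 12 in 2 or more lists and 4 in all 3, against 13 in the merged Dox- list. Tgif1 had the most, 5080 bp (38.1% of its span), with 0, 5785 and 4165 bp in the replicates. The phosphatase gene Ppm1a had 153, 2291 and 1542 bp, Skil had 397, 1995 and 2365 bp, and Smad6 had 319, 6706 and 1349 bp. Smad7, the classical feedback inhibitor, had 1560 bp in the merged Dox+ list and 6246 bp in the merged Dox- list. Its replicates overlapped between groups, at 258, 7908 and 1397 bp with dox and 794, 5092 and 2716 bp without. Dact1, Dact2, Lefty1 and Lefty2 had no merged Dox+ peak. Lefty1, Lefty2 and Dact2 were also at 0 in every single list of both groups.

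Genes that TGF-β is known to control in fibroblasts had a merged peak in 21 of 24 cases, and in 21 cases a peak in both replicates 2 and 3. The 2 sets differed in Fn1, the fibronectin gene, which had a merged peak but only replicate 2 (1007 bp) among the single lists, and in the cytokine gene Il11, which had 0, 2561 and 3352 bp in the replicates and none in the merged list. Acta2 and Sphk1 also had no merged peak. The largest lengths were at Junb (5912 bp), the matrix gene Thbs1 (2967 bp), Ccn1 (2850 bp) and Cdkn1a, which encodes the cell-cycle inhibitor p21 (2555 bp). The collagen genes had 1216 bp (Col1a2), 939 bp (Col1a1) and 379 bp (Col3a1) with dox and 3274, 4125 and 3037 bp without. The Dox+ replicates were at 0, 1346 and 1465 bp for Col3a1 and the Dox- replicates at 0, 4433 and 0 bp, so the groups overlapped. The merged Dox- list had a peak at 22 of the 24 genes.

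AP-1 genes had a peak in 11 of 12 cases with dox, 9 of them in 2 or more lists, and in 8 without. Junb was covered over 71.8% of its span, with 394, 5876 and 4971 bp in the replicates, and Jund over 59.6%, with 650, 3627 and 4230 bp. Fos, the immediate-early partner of the JUN proteins, had 0, 2525 and 734 bp with dox and 0, 984 and 0 bp without. Jun went the other way in the merged lists, at 2427 bp with dox and 6818 bp without, and in the replicates at 0, 2468 and 2096 bp against 307, 5925 and 2615 bp. Mafk and Maff had a merged peak with dox (957 and 425 bp) and 0 bp in every Dox- list, Mafk in 2 Dox+ lists and Maff in 1. How many of all genes had such a pattern was not counted. Fosb had 964 bp in the merged Dox+ list and 0 bp in the merged Dox- list, but replicate 2 alone supported it in both conditions, with 1485 bp and 670 bp.

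The ID genes, which encode inhibitors of basic helix-loop-helix factors, had a peak in 4 of 4 cases in both conditions, led by Id3 (4439 bp, 70.9%) and Id1 (3020 bp, 58.5%). All 10 KLF genes had a peak in both, led by Klf3, Klf13 (3464 bp), Klf10 (3088 bp) and Klf6 (2712 bp). At Klf10, an early TGF-β response gene, the Dox+ replicates had 0, 4171 and 4401 bp and the Dox- replicates 0, 1086 and 665 bp. The YAP and TEAD genes, which act beside SMADs, had a peak in 11 of 12 cases in both conditions. Cofactors of the SWI/SNF, MLL and p300 complexes had one in 21 of 22 with dox and 22 of 22 without, and RUNX, CEBP and NFI genes in 9 of 11 in both, with 5661 bp at Nfic.

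Reprogramming takes cells from a mesenchymal to an epithelial state before pluripotency genes switch on. Transcription factors of the mesenchymal state had a peak in 8 of 9 cases with dox and 9 of 9 without. They were led by Zeb2, a repressor of epithelial genes (4302 bp with dox, 2850 bp without), and Zeb1 was at 0 in the merged Dox+ list, with 0, 397 and 954 bp in the replicates, and at 1591 bp in the merged Dox- list. Epithelial genes had a peak in 7 of 13 cases with dox and 1 of 13 without. In the single lists the count was 1, 9 and 5 of 13 with dox and 0, 2 and 1 without, while the lists reached 447, 12538 and 9044 of the 21938 protein-coding genes with dox and 1885, 10981 and 3935 without.

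Dsp, the desmosomal linker desmoplakin, had 0, 4136 and 1509 bp in the Dox+ replicates and 0 in each Dox- replicate. Krt8, a simple-epithelial keratin, had 0, 1230 and 1131 bp with dox and again 0 in each Dox- replicate. Ovol1, a repressor of mesenchymal genes, had 0, 1127 and 577 bp, and the tight-junction gene Cldn3 had 535, 679 and 0 bp, both against 0 throughout without dox. Each of these 4 genes was thus found in 2 of 3 Dox+ lists and in none of the Dox- lists, though the merged Ovol1 peak itself was in fewer than 2. The share of all protein-coding genes with that pattern was not counted, so these 4 genes have no baseline here. Esrp1, an epithelial splicing factor, had 0, 276 and 389 bp with dox and 0 without, and no merged peak. Cldn7 had peaks in both conditions (1112 bp and 1348 bp in the merged lists). Cdh1, which encodes E-cadherin, had 1 intronic peak of 175 bp with a fold of 8.75, present in the replicate 2 list only, where its fold was 2.28. Epcam, Cldn4, Ocln and Krt18 were at 0 in all 3 Dox+ lists. These are counts of called peaks in lists of unequal length, with no test of the difference.

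Pluripotency genes had a merged peak in 8 of 22 cases with dox (36.4%, against 46.8% of protein-coding genes) and in 6 without. They were Jarid2 (1947 bp), Tet2 (1195 bp), Tbx3 (983 bp), Sox2, Tet1, Klf2, Gdf3 and Pou5f1, of which 6 were in 2 or more lists and none in all 3. Nanog, Esrrb and Sall4, core genes of the network, had 0 bp in every SMAD3 list of both groups. Of the 5 genes whose cDNAs were introduced, Sox2 had its only peak (805 bp) wholly within its exon, in the coding part. The peak at Pou5f1 (217 bp) held no exon sequence. For Myc 67.8% and for Klf4 54.7% of the covered bases were exonic, and for Smad3 43.5%. Coding sequence made up 31.8%, 46.8% and 5.19% of the covered bases of these genes in that order. At Myc, 0, 3438 and 1821 bp were covered with dox and 306, 1222 and 610 bp without. Coding sequence of the introduced genes is also carried by the cassette or the retrovirus. Its part in the peaks, and that of any untranslated sequence carried along, was not tested.

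**Figure D4:**
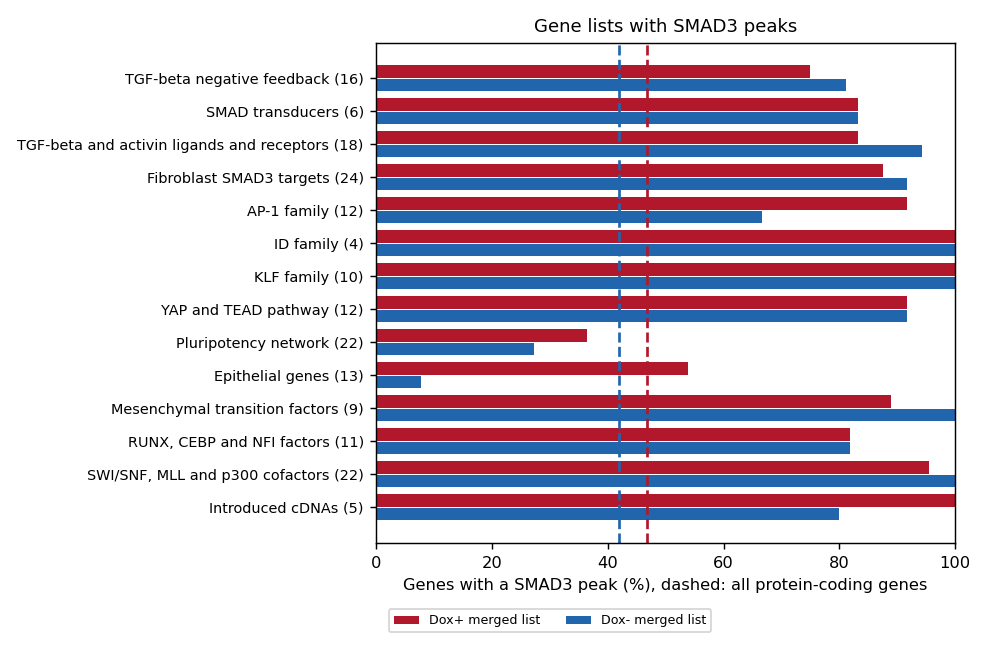
Share of the genes of each list that had a SMAD3 peak (x axis, %) in the merged Dox+ (red) and Dox- (blue) lists, with the number of genes in brackets and dashed lines for all protein-coding genes (46.8% and 42.0%). Epithelial genes stand at 53.8% with dox and 7.69% without, and pluripotency genes lie below both dashed lines.

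Dox+ and Dox- lists were compared to ask whether induction changed the general make-up of SMAD3 sites. The promoter share was 84.8%, 47.8% and 72.3% in the Dox+ replicates (68.3% ± 18.8, SD, n = 3) and 91.1%, 51.5% and 74.3% in the Dox- replicates (72.3% ± 19.8, SD, n = 3). The groups overlapped, and their means were -3.99 percentage points apart, within the spread of either group (exact permutation p = 0.700). Median width was 226, 534 and 545 bp against 363, 543 and 417 bp, a log2 difference of -0.11 (exact permutation p = 0.900). For median GC content the difference was -1.84 percentage points (exact permutation p = 0.700), for the share with an AP-1 site -0.113 (exact permutation p = 1.00) and for the SMAD half-site -0.253 (exact permutation p = 0.700). Each of these differences changed sign when single replicates were left out, and differences of this size were not detectable with these lists.

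The share of peaks with a KLF sequence did not overlap between the full lists of the groups. It was present in the centre of 9.05%, 6.53% and 6.45% of peaks in the Dox+ replicates (7.34% ± 1.48, SD, n = 3) and of 5.98%, 4.47% and 4.85% in the Dox- replicates (5.10% ± 0.784, SD, n = 3). The 3 Dox+ values lay above the 3 Dox- values, and the difference was 2.24 percentage points (exact two-sided permutation p = 0.100, Benjamini-Hochberg 0.267 over 8 comparisons). A p of 0.1 is the smallest that 3 against 3 lists can give. The separation was lost with lists of equal length (difference 2.30) and with peaks of a −log10 q-value of at least 2 (difference 4.27), with an exact permutation p = 0.300 in each case. Peaks at and away from transcript starts were then taken apart, a division chosen after the values were seen. Away from starts the share was 7.81%, 5.89% and 5.95% with dox and 2.03%, 2.27% and 2.41% without, a difference of 4.31 percentage points (exact permutation p = 0.100). The values of replicate 1 rest on 64 such peaks with dox and 148 without. In promoter peaks the share was 9.27%, 7.22% and 6.64% against 6.37%, 6.54% and 5.70%, a difference of 1.51 percentage points (exact permutation p = 0.100).

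**Figure D5:**
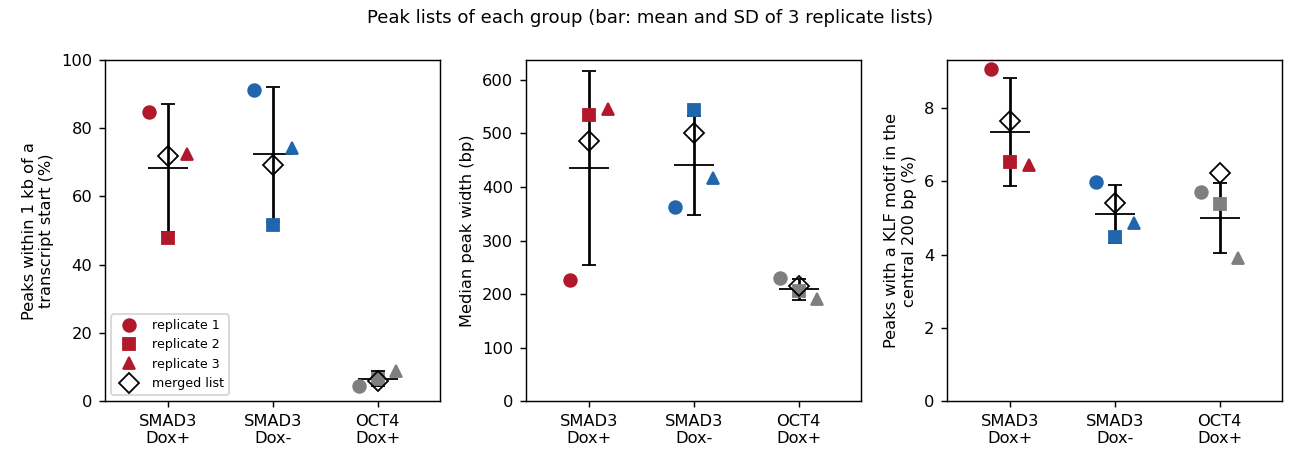
Promoter share (%), median width (bp) and share of peaks with a KLF sequence in the central 200 bp (%) for the 3 replicate lists of each group (filled symbols), their mean and SD (bars) and the merged list (open diamonds). The Dox+ and Dox- SMAD3 lists overlap in promoter share and width, and the 3 Dox+ lists lie above the 3 Dox- lists in the KLF share, from 6.45% up against at most 5.98%.

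Many of the same regions were occupied without dox. A merged Dox- peak overlapped 7667 of the 12576 Dox+ peaks (61.0%, interval 60.1 to 61.8), and seen from the other side 7627 of the 11512 Dox- peaks (66.3%) met a Dox+ peak. The share was 74.8% (73.9 to 75.7) for promoter peaks and 25.6% (24.2 to 27.1) for the others. With the single Dox- lists included, 8986 of the 12576 merged peaks (71.5%) met a Dox- peak. Among the 8665 peaks in 2 or more Dox+ lists, 1472 (17.0%) met no peak in any Dox- list. Of those 1472, 689 (46.8%) were promoter peaks and 140 (9.51%) overlapped an OCT4 region, against 81.2% and 2.12% of the 8665. The Dox- lists held 1656, 18588 and 4038 peaks and the Dox+ lists 420, 23981 and 10374, so the lack of a Dox- peak can follow from list length.

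SMAD3 lists were unlike the OCT4 lists from the same kind of induced cells. The promoter share of OCT4 lists was 4.43%, 6.64% and 8.82% (6.63% ± 2.20, SD, n = 3), below all 3 SMAD3 lists by a mean of 61.7 percentage points (exact two-sided permutation p = 0.100, Benjamini-Hochberg 0.267). Median GC content was 39.3%, 39.7% and 42.0% in OCT4 lists and 66.9%, 53.5% and 60.9% in the SMAD3 Dox+ lists, a difference of 20.2 percentage points (exact two-sided permutation p = 0.100, Benjamini-Hochberg 0.267). OCT4 peaks were called as narrow and SMAD3 peaks as broad ones, so their widths were not compared. The cutoffs also differed, with a q-value of 0.01 for OCT4 and a broad cutoff of 0.1 for SMAD3. A −log10 q-value of at least 2 was reached by 42.2% of merged SMAD3 Dox+ peaks and 100% of merged OCT4 regions. Among the merged SMAD3 peaks of that strength the promoter share was 72.5%. The comparison of replicate lists with OCT4 was not repeated at that strength.

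A subset of SMAD3 peaks coincided with OCT4. A merged OCT4 region overlapped 494 SMAD3 peaks (3.93%), which were 433 of 3537 non-promoter peaks (12.2%) and 61 of 9039 promoter peaks (0.675%). Peaks with an OCT4 region had a median width of 323 bp and a GC content of 44.3%, against 494 bp and 62.0% for the rest, and 7.29% of them met a merged Dox- peak, against 63.2% of the rest. These sets differ in location, with 12.3% promoter peaks against 74.3%. Among non-promoter peaks, those with OCT4 had 306 bp, 43.4% GC and 2.08% with a merged Dox- peak. All non-promoter peaks had 372 bp, 50.0% and 25.6%. Away from promoters, the octamer was present in 4.39% of the 433 peaks with OCT4 and 0.966% of the 3104 without, while AP-1 was present in 7.85% and 10.7% and the KLF sequence in 6.24% and 7.51%. In the pooled coverage, the 527 OCT4 summits with a merged SMAD3 peak had a median input-subtracted SMAD3 score of 13.5. The SMAD3 peaks were called on the same pooled ChIP, so a higher score under them follows from the calling. The 1556 summits without a called SMAD3 peak had a median of 5.84, with 1506 of these (96.8%) above 0. No score for Dox- cells or for regions without OCT4 was computed, so this share has no baseline here.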

How the data were processed

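Peak lists, gapped-peak lists and a coverage matrix deposited for mouse ChIP-seq were used. Per the labels and methods, the authors trimmed the reads (Trimmomatic 0.36, a version given in the submitters' processing notes, as are those below), aligned them to mm10 with Bowtie 2, removed duplicates, kept reads with a mapping quality of at least 40, removed blacklisted regions, and called peaks with MACS2 2.1.0 on single and on pooled replicates against pooled inputs, as broad peaks at a cutoff of 0.1 for SMAD3. For every peak the deposited lists hold a fold over input (a linear ratio averaged over the peak) and a −log10 q-value. The deposited gapped lists give the number of narrow blocks per peak. The matrix the authors deposited holds a signed score, pooled ChIP coverage, scaled to genome-wide coverage of 1, minus input coverage scaled likewise, in bins of 10 bp around OCT4 summits, and its central 200 bp were averaged. Deposited tables of the authors' own comparisons (DiffBind folds and p-values) were not used.

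Distinct regions on chromosomes 1 to 19, X and Y were kept. Locations, transcript starts and gene spans came from GENCODE vM21, sequence from GRCm38, and overlap meant at least 1 bp. Motifs were searched on both strands within 100 bp of peak centres. The mean genome coverage was taken from the smallest step shared by the 6 most common bin-to-bin changes in the matrix, with a tolerance of 1.50%. Lists were compared by exact two-sided permutation of replicate lists, with Benjamini-Hochberg adjustment over 8 comparisons. Genes named were those with the most covered bases (20), the highest covered share among genes in all 3 lists (10), the genes at the 5 widest supported peaks and at the 6 highest-fold peaks in all 3 lists (5 of them described), up to 4 members per gene list with the most covered bases, members needed for a count, and the introduced cDNAs. Other genes were chosen after their values were seen, and results for some genes are not reported here. Members and lists were chosen with earlier results of these data known. Overlap, permutation and motif steps were tested on simulated data. Alternatives were other promoter distances, flanks and overlaps, stricter q-values (−log10 q of at least 2), equal list lengths, a replicate block and leaving out replicates. The KLF and AP-1 shares by location and the count of genes in both replicates 2 and 3 were added after the data were seen. Computations ran in Python 3.11.15 (scipy 1.17.1 for the tests, pysam 0.24.0 for sequence, statsmodels 0.14.6 for adjustment, with pandas 2.3.3, matplotlib 3.10.9 and numpy 2.4.6).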

Additional observations from a re-analysis of the deposited data

How the results depend on the processing

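Of 93 recomputed values, 74 were labelled as unchanged, 13 reversed in direction and 6 moved. For the list comparisons only the direction could change, since so few lists cannot give a p-value below the threshold used. A label of unchanged therefore says nothing about whether a separation of the groups was kept. Counts were judged by a fixed fold window, and shares and widths of merged peaks by the spread between replicates. With merged peaks of a −log10 q-value of at least 2, 3718 peaks were in 2 or more lists (70.1% of 5303) and 5954 genes had a peak. With replicate peaks of that strength, 903 merged peaks had 2 or more lists. The summed narrow blocks had a median of 282 bp, against 486 bp for the broad peaks. In the stricter lists the AP-1 difference between Dox+ and Dox- was 2.85 and the SMAD half-site difference 0.345 percentage points, opposite in sign to the full lists. Leaving out 1 replicate gave 364 to 8633 peaks in 2 lists. It gave differences from Dox- of -14.4 to 6.25 percentage points in promoter share, -5.83 to 1.62 in GC content, -1.35 to 1.45 for AP-1, -1.81 to 1.32 for the half-site, 1.39 to 2.69 for KLF and -0.32 to 0.31 in log2 width, and differences from OCT4 of 53.4 to 71.9 in promoter share and 16.9 to 23.6 in GC content. The cause of these changes was not tested. With a replicate block (same-numbered lists paired, exact sign-flip permutation, smallest p 0.25), the KLF difference was 2.24 (p = 0.25) and the promoter difference from OCT4 61.7 (p = 0.25), and no call changed. Over 32813 regions, the deviations of same-numbered Dox+ and Dox- lists had correlations of -0.11, -0.43 and -0.11, and no list correlated best with its own number. The regions were taken from these same lists, which differ widely in length. The correlations therefore cannot decide whether same-numbered samples were prepared together. The main comparisons did not treat the numbers as pairs. The merged list could not be called again without a replicate, since no reads were used.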

Other observations

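The merged peaks with the highest fold clustered along the genome, a pattern noticed after the values were seen. Of the 100 merged Dox+ peaks with the highest fold, 67 had another of the 100 within 200 kb, against 27 of the peaks ranked 101 to 200, and between 0 and 16 in the 5 lower-ranked sets of 100 examined. Such neighbours were found for 59 and 58 of the 100 strongest peaks in Dox+ replicates 2 and 3, for 4 in replicate 1, for 40 in the merged Dox- list and for 6 in the merged OCT4 list. The clusters with 4 peaks lay on chromosome 11 at 97686995 to 97700887 (Cisd3 and Pcgf2) and at 100440895 to 100545678 (Nt5c3b, Klhl11, Acly and Ttc25), on chromosome 3 at 52180879 to 52401499 (Foxo1, Gm30074, Gm37170 and Gm38098) and on chromosome 7 at 80114560 to 80187027 (Idh2, Gm45202 and Sema4b). The strongest peak of the list, at the start of the DNA polymerase gene Polb, had a fold of 15.9 and lay in a cluster of 3 with Vdac3 and Ikbkb on chromosome 8. At Polb, replicates 2 and 3 gave folds of 2.40 and 19.1, and replicate 1 had no peak. A merged Dox- peak there had a fold of 8.39.

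The fold of a merged peak often exceeded that of every replicate peak under it. This was so for 4442 of 12496 peaks with a replicate peak (35.5%) and for 90 of the 99 such peaks among the 100 strongest. At Klhl11 the merged fold was 13.8, while replicates 2 and 3 gave 2.85 and 4.22 and replicate 1 had no peak. Acly, the cytosolic enzyme that makes acetyl-CoA, had 12.1 against 2.33 and 4.88. A fold is averaged over a peak, and merged and replicate peaks differ in extent, so these folds are not measured over the same bases.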
